A study of Mus musculus with 2 samples.

Results

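Stfa2, Stfa3, Stfa2l1, Cstdc4 and Cstdc5 are 5 genes of the mouse stefin A family, picked by symbol from the 32285 genes of 2 single cell count matrices, and each of the 5 has 1 row in both. The genes were picked with their NP against saline levels already known, so the levels below are a description. Stefins are small type 1 cystatins that stay inside the cell, where they bind papain-like cysteine proteases such as cathepsins B, H, L and S tightly and reversibly. The human genome carries a single stefin A gene, whereas in the mouse the locus has been duplicated into a cluster of closely related genes, several of which are abundant in neutrophils and their bone marrow precursors. Stefin B, encoded by Cstb on another chromosome, is the widely expressed relative.

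The cells came from lungs of 12 week old female BALB/cJ mice that carried 4T1 breast tumors for 14 days after inoculation with 100000 tumor cells, so both groups had a tumor and no tumor-free lung was included. The NP group received cargo-free poly(lactide-co-glycolide) nanoparticles (NPs) intravenously every 3 days from day 1 and the saline group received intravenous saline on the same schedule. Each group is 1 library made from pooled lungs (4 mice per condition by the labels), so mice cannot be told apart within a library, and treatment cannot be told apart from library or pool. No test between the groups was possible, and every 95% interval given here covers counting error only.

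The libraries held 91168129 (saline) and 90081747 (NP) UMIs, the tagged RNA molecules that the counts report. A barcode was kept as a cell when it had 500 to 5000 detected genes and under 7.5% mitochondrial UMIs, which left 8662 saline and 8333 NP cells with medians of 6474.5 and 6008 UMIs. The libraries shared 21 barcode sequences among kept cells. Clusters were named from marker genes without using the stefins, and names such as neutrophil below mean neutrophil-like. Neutrophils made up 5612 saline cells (64.8%) and 3103 NP cells (37.2%), and cells of unnamed clusters made up 4.78% and 11% respectively.

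All 5 genes lie on chromosome 16 within 298582 bases (GRCm38), each with 3 exons. Stfa2l1 (ENSMUSG00000059657, chr16:36156811-36161953) and Cstdc4 (ENSMUSG00000079597, chr16:36184212-36188111) are on the plus strand. Cstdc5 (ENSMUSG00000071561, chr16:36359382-36367748), Stfa2 (ENSMUSG00000022902, chr16:36403992-36408457) and Stfa3 (ENSMUSG00000054905, chr16:36450537-36455392) are on the minus strand. Another 5 stefin A genes with a row (Stfa1, Cstdc6, Csta1, Csta2 and Csta3) lie in the same cluster, which spans 335447 bases in all.

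The sequence just upstream of each RefSeq start is shown because the 5 genes share it although they are spread over the cluster. Each line is 72 bases of the gene's own strand from RefSeq (GRCm38.p6), ending in the longest stretch that all 5 have in common within 250 bases upstream of the RefSeq start, which is in capitals. The gene positions above are from GENCODE, whose starts lie further upstream for Stfa2 and Cstdc5 (RefSeq starts at 36408363 and 36367570), so the windows of these 2 genes fall inside their GENCODE gene.
Stfa2 (chr16:36408384-36408455, minus strand): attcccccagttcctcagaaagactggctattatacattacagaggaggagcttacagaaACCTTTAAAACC
Stfa3 (chr16:36455415-36455486, minus strand): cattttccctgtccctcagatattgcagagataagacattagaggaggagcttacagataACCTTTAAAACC
Stfa2l1 (chr16:36156715-36156786, plus strand): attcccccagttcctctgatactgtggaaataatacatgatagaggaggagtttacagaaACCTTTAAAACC
Cstdc4 (chr16:36184120-36184191, plus strand): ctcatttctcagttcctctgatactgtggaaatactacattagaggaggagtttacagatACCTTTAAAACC
Cstdc5 (chr16:36367571-36367642, minus strand): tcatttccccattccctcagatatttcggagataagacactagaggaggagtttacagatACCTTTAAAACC

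The shared 12 bases start 32 bases before the RefSeq start in Stfa2 and Cstdc4, 34 in Stfa3, 36 in Stfa2l1 and 12 in Cstdc5. They were found on the gene's strand in 10 of 32851 RefSeq start-site entries (0.0304%), among them the 5 genes from which the stretch was taken. Of the 4 other stefin A genes with an entry, 2 hold them. The core of that stretch, TTTAAAA, was found on the gene's strand in 5.4% of all entries. Only the 250 bases upstream of the start in each 300-base entry were searched, here and for the motifs below. Aligned with gaps, the 72-base windows were 74.3% identical between Stfa2 and Cstdc4 or Cstdc5 and up to 87.7% identical between Stfa3 and Cstdc5. The core of the interferon-stimulated response element, searched on either strand, was in none of the 5 entries and in 2.98% of all entries. A gamma-activated site (TTCNNNGAA) was in the Cstdc4 entry alone among the 5, against 7.02% of all entries. The C/EBP motif TTNNGCAAT was in none of the 5 and in 1.93% of all entries. The PU.1 motif GAGGAAGT was likewise in none of the 5 and in 2.44% of all entries. The shorter Ets core GAGGAAG was in 2 of the 5 (Cstdc4 and Cstdc5, on the opposite strand) and in 10.6% of all entries. These are letter matches in the windows searched and say nothing about binding.

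The likeness of the genes also bears on how reads are assigned, since Cell Ranger does not count a read that matches several genes. Of the 90-base windows in the last 300 transcript bases, 41.7% of those of Cstdc5 were identical in another gene, most often Cstdc6. For Cstdc4 the share was 21.3%, all with Csta2. It was 3.79% for Stfa2 and 3.32% for Stfa2l1, which share windows with each other, and 0% for Stfa3. With 50-base windows the shares were 66.1%, 33.9%, 25.1%, 24.3% and 0% in the same order. The genes can therefore be undercounted to different degrees, Cstdc5 and Cstdc4 the most, and the extent was not measured. Levels and shares compared between the genes below carry this limit. The mice are also BALB/cJ, whereas the reference is the C57BL/6J genome. The sum over the 5 genes, given beside the single genes, does not make up for uncounted reads, and Cstdc6, Stfa1 and Csta2 lie outside it.

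Stefin transcripts were concentrated in neutrophils. Of the UMIs of the 5 genes in kept cells, 94.9% (saline) and 92.9% (NP) were in neutrophils, which held 61.9% and 33.5% of all UMIs. Unnamed clusters held 3.36% and 4.68%, and the other named classes together held 1.76% and 2.42%. The S100a8 and S100a9 transcripts, which encode the calprotectin subunits and mark neutrophils, were distributed alike, with 95.1% and 91% in neutrophils.

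In neutrophils all 5 genes had a lower level in the NP library, in UMIs per 1000000 UMIs of the pooled cells (CPM). Stfa2 was at 2760.2 CPM in saline (95% Poisson interval 2745 to 2775) and 1235 in NP (1221 to 1249), a log2 difference of -1.16 (-1.18 to -1.14). Stfa3 was at 1519.7 and 705 CPM, a log2 difference of -1.11 (-1.13 to -1.08). Over all neutrophils pooled, these were the genes with the largest differences of the 5, and both were at least 2-fold lower. The order of the genes differed with the weighting of cells, as given in the last section.

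Stfa2l1 had the smallest difference, with 2679.9 CPM in saline and 1639 in NP (log2 -0.71, -0.73 to -0.69). Cstdc4 was at 4172 and 2355 CPM (log2 -0.82, -0.84 to -0.81). Cstdc5, the most abundant, was at 12483 and 6855 CPM (log2 -0.86, -0.87 to -0.86). The counts behind these levels ran from 73207 UMIs (Stfa3) to 601325 (Cstdc5) in saline and from 17086 to 166157 in NP. At such counts the intervals, which cover counting error only, are narrow for any gene.

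Together the 5 genes made up 23615 CPM of saline and 12789 CPM of NP neutrophils, 0.542 of the saline level (log2 -0.88, -0.89 to -0.88). Over the 7256 genes with at least 200 neutrophil UMIs in the libraries together, 0.565% were at least 2-fold lower in NP and 1.83% at least 2-fold higher, against 2 and 0 of the 5 stefins, and the median log2 difference was -0.13. The genes' places from the lowest of the 7256 were 27 for Stfa2, 34 for Stfa3, 69 for Cstdc5, 82 for Cstdc4 and 161 for Stfa2l1. Since this contrast was known when the genes were chosen, nothing is read from these places.

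**Figure D1:**
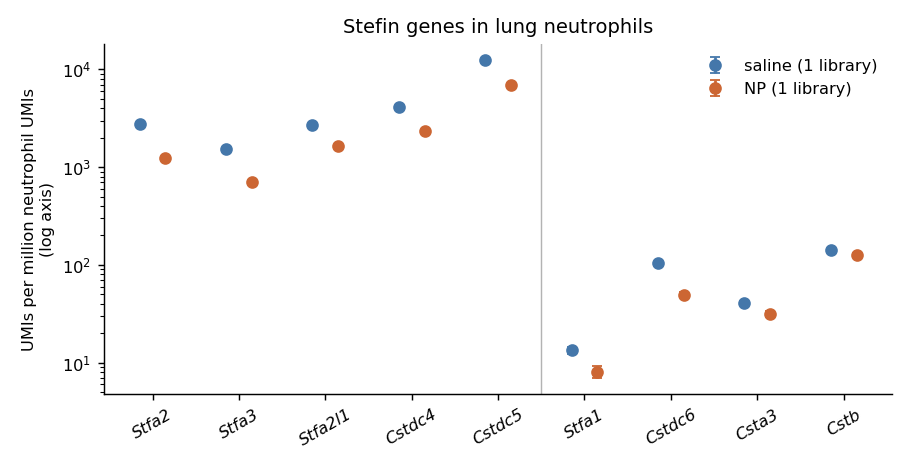
Level of the 5 stefin A genes (left of the line) and of Stfa1, Cstdc6, Csta3 and Cstb (right) in saline and NP neutrophils, in CPM on a log axis, with 1 pooled value per library and error bars that are 95% Poisson intervals for counting error only. Each of the 5 is lower in NP, from Cstdc5 at 12483 and 6855 CPM down to Stfa3 at 1519.7 and 705, while Cstb is at 141 and 127.

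The makeup of the sum was similar in the libraries. Cstdc5 supplied 52.9% of the UMIs of the 5 genes in saline and 53.6% in NP, and Cstdc4 supplied 17.7% and 18.4%. The share of Stfa2 was 11.7% and 9.66%, that of Stfa2l1 11.3% and 12.8%, and that of Stfa3 6.44% and 5.51%.

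Counts per cell were uneven. The median neutrophil held 56 UMIs of the 5 genes in saline and 26 in NP, the highest held 4310 and 3740, and 2.37% and 7.06% held none. The 10% of neutrophils with the most stefin UMIs held 56.4% of them in saline and 63% in NP. For S100a8 and S100a9 together that share was 39.5% and 43%. Across single saline neutrophils the log levels of Stfa2 and Stfa3 had a Pearson r of 0.78 (NP 0.68) and those of Stfa2 and Cstdc5 one of 0.75 (0.66), over cells that share a library and differ in depth. These were the highest among pairs of the 5 genes, and Stfa3 and Stfa2l1 had the lowest, at 0.49 (0.36).

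Saline neutrophils were also deeper (median 6042 against 5240 UMIs), so each cell was thinned to 1000 UMIs. A UMI of any of the 5 genes was then seen in 89.1% of saline and 80.6% of NP neutrophils, against 97.6% and 92.9% without thinning. Stfa3 was seen in 33.4% and 17.9% and Stfa2 in 48.4% and 29.8% of thinned cells. Stfa2l1 was seen in 66.7% and 55.2%, although its CPM in saline was below that of Stfa2. As background, a thinned monocyte showed any of the 5 in 9.96% of saline and 4.06% of NP cells. Each of these shares was lower in NP.

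The other genes of the cluster and the proteases they act on were read beside the 5. Of the 5 other stefin A genes, 3 had enough UMIs, and all 3 were below 0 with a median log2 difference of -0.75. As background, 71.7% of the 7256 genes lay below Csf3r, which was at -0.001. Cstdc6, a close copy of Cstdc5, was at 105 and 49.5 CPM (log2 -1.09, -1.18 to -0.999), Stfa1 at 13.4 and 7.96 CPM (-0.75, -0.99 to -0.52) and Csta3 at 41 and 31.4 CPM (-0.39, -0.51 to -0.26). Csta1 and Csta2 had at most 7 UMIs in either library and get no fold. The difference was thus not equal across the family, with Csta3 the least of the 8 measured stefin A genes.

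Stefin B was near the median of all genes. Cstb was at 141 and 127 CPM, a log2 difference of -0.16 (-0.22 to -0.09) against the median of -0.13 over all genes. The secreted cystatin C gene Cst3 was at 655 and 643 CPM (-0.03). Of the 11 cysteine cathepsin genes and legumain, 8 had enough UMIs, with 4 above and 4 below 0, none at 2-fold, and a median of 0.05. Cathepsin S (Ctss), an endolysosomal protease and a stefin target, had the largest difference among them, from 46.1 to 86.2 CPM (log2 0.90, 0.82 to 0.99). Cathepsin B (Ctsb) differed by -0.04 and cathepsin L (Ctsl) by -0.03, both within an interval that holds 0.

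Over all neutrophils pooled, the reference neutrophil genes as a set did not follow the stefins. Of 13 such genes, 9 were above and 4 below 0, with a median log2 difference of 0.10 against -0.13 over all genes. S100a8 and S100a9 together were at 290439 and 305575 CPM (log2 0.07). Ngp and Camp, granule genes of maturing neutrophils, were higher in NP (0.59 and 1.00). Retnlg, which marks circulating neutrophils, was the lowest of the list at -0.27. The ratio of the 5 stefins to S100a8 and S100a9 was 81.3 UMIs per 1000 in saline and 41.9 per 1000 in NP neutrophils.

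Neutrophils were next ordered by the share of their UMIs from the granule genes Ngp, Camp and Ltf, which are transcribed in the bone marrow stages and lost with maturation, into ranges of 0, up to 0.1%, 0.1 to 1%, 1 to 5% and 5% or more. The ranges held 2884, 1740, 543, 321 and 124 saline cells and 1772, 799, 215, 165 and 152 NP cells. Median depth was higher in each successive range, from 4400 to 29110 UMIs in saline and from 4248 to 26349.5 in NP. The ranges are cuts through a continuous score, not cell types. Stage genes were read beside this order. In saline, Mki67, a cycling marker, was at 79.2 CPM in the highest range and 0.344 at 0, and Il1b, which mature neutrophils express, was at 182 and 14687 CPM.

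The sum and 4 of the 5 genes peaked between the ends of this order. The sum of the 5 in saline was 13067 CPM in the range of 5% or more, 31588 at 1 to 5%, 34291 at 0.1 to 1%, 24247 up to 0.1% and 15559.5 at 0. In NP the same ranges held 6323, 19822, 18908, 13879 and 10369.9 CPM. In both libraries the least mature cells had the lowest level and the highest was 2.62 times (saline) and 3.13 times (NP) the lowest. The low end rests on 124 and 152 cells. In 5 equal groups of cells by the same share, the highest level was in the group with the most granule transcripts and was 1.92 times (saline) and 1.48 times (NP) the lowest. Cells tied at a share of 0 were divided at random between these groups, so the median share was 0 in groups 1, 2 and 3. The group with the most granule transcripts joins cells of several of the ranges above. With the granule genes left out of the total, the range of 5% or more was at 14095 and 6834 CPM.

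The members differed in where they peaked. Stfa3 in saline was at 632, 2478, 2553, 1439 and 752 CPM from the highest share to 0, and in NP at 322, 1775, 1219, 593 and 377. Cstdc5 in saline was at 8716, 19262, 19116, 11904 and 6811 CPM in that order, and in NP at 4502, 12586, 10945, 6669.7 and 4499. In NP both thus peaked at 1 to 5%. In saline Cstdc5 peaked at 1 to 5% and Stfa3 at 0.1 to 1%, the same range as Stfa2 and Cstdc4 in saline.

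Stfa2 in saline was at 1253, 2974, 3996, 3203 and 1893 CPM from the highest share to 0, and in NP at 488, 1784, 2143, 1403 and 960.2. Cstdc4 in saline was at 1550.1, 4711, 5907, 4679 and 3075 CPM, and in NP at 586, 2466, 3143, 3185 and 2335. These genes peaked in the middle ranges.

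Stfa2l1 was the exception. In saline it was at 915, 2163, 2719.9, 3021 and 3029 CPM from the highest share to 0, and in NP at 424, 1209.5, 1458, 2028 and 2198, so that its level was highest in cells with few or no granule transcripts. The highest was 3.31 times (saline) and 5.18 times (NP) the lowest. Among the other family members Csta3 had the same order more steeply. It was at 1.9 CPM at 5% or more and 70.7 CPM at 0 in saline, and at 1.47 and 58.5 CPM in NP. Its values at 5% or more rest on 7 saline and 6 NP UMIs. The 95% interval of its highest over its lowest level was 18 to 92.9 times in saline and 18.2 to 109 times in NP. Cstb was 2.5 times higher at 0 than at 5% or more in both libraries.

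**Figure D2:**
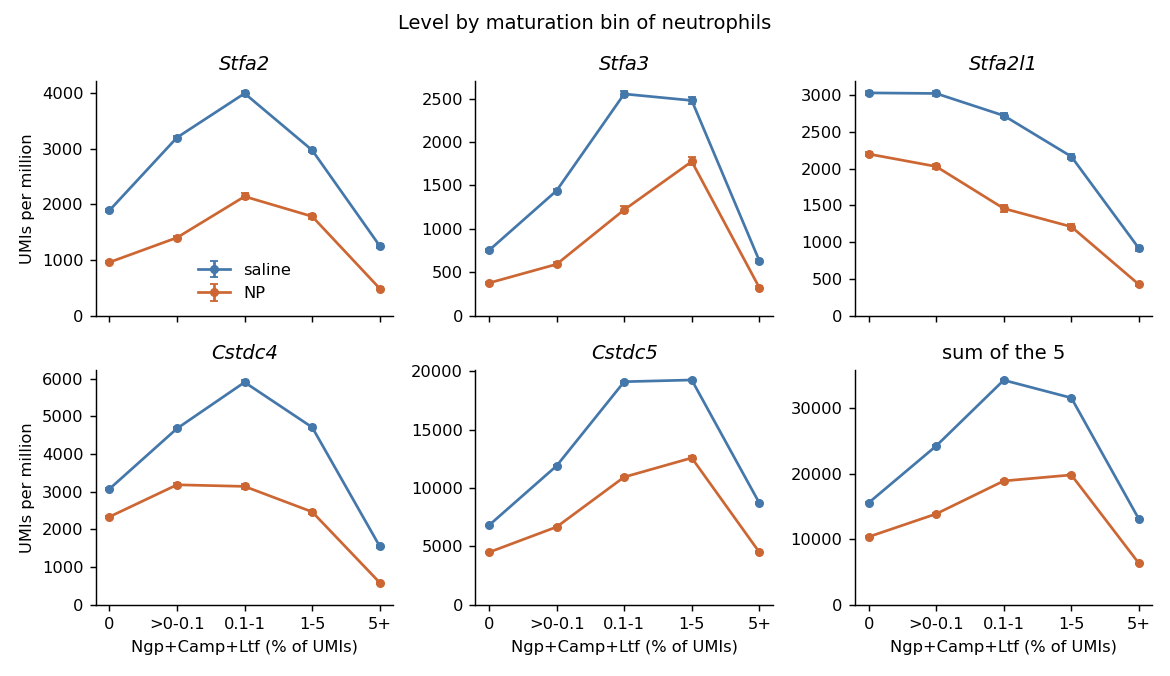
Level of each of the 5 stefin A genes and of the sum of the 5 in neutrophils (CPM, linear axes from 0) against the percent of UMIs from Ngp, Camp and Ltf, most mature range at the left, for saline and NP with 95% Poisson intervals. Levels peak between the end ranges except for Stfa2l1, which is highest where the share is 0 (3029 CPM in saline and 2198 in NP), and NP lies below saline throughout.

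Over all genes, cells with a share of 1% or more were compared with cells under 0.1% within each library. In saline 5.74% of 6338 genes were at least 2-fold higher and 35.9% at least 2-fold lower in the former, and in NP 7.13% and 36% of 4909 genes. None of the 5 passed 2-fold in saline. In NP, Stfa3 was higher (log2 1.05) and Stfa2l1 lower (-1.46). In saline the same differences were 0.77 and -0.79, so these genes had the same order in both libraries. The median over all genes was -0.71 in saline and -0.65 in NP. Below Stfa2l1 lay 45.5% of genes in saline and 21.2% in NP, so its saline difference was near the median. Depth differs between these ranges and its part was not tested.

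With these orders the makeup of the sum shifted along the granule share. Cstdc5 supplied 43.8% of the stefin UMIs at a share of 0 and 66.7% at 5% or more in saline, and 43.4% and 71.2% in NP. Stfa2l1 supplied 19.5% and 7% in saline and 21.2% and 6.71% in NP.

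**Figure D3:**
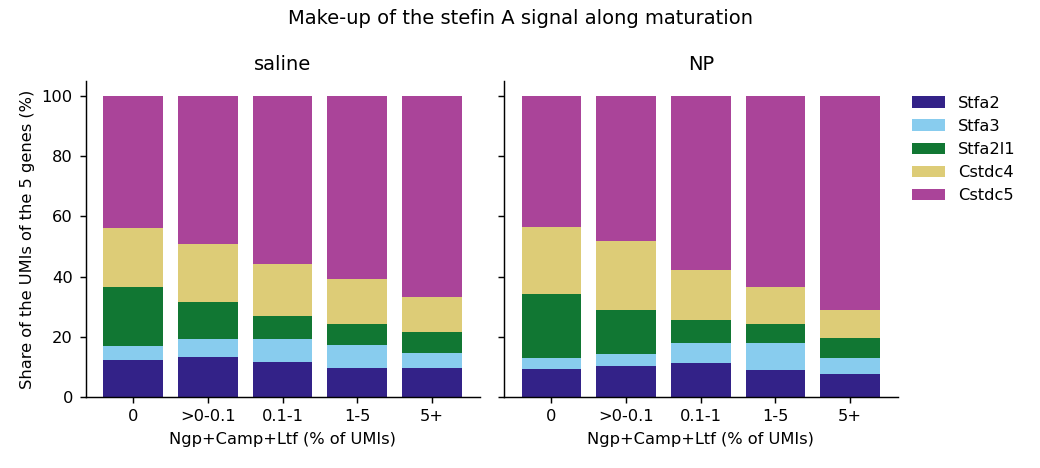
Percent of the UMIs of the 5 stefin A genes that each gene supplied in saline and NP neutrophils, by range of the Ngp, Camp and Ltf share. Stacked bars add to 100%, and Cstdc5 takes 43.8% where the share is 0 and 66.7% at 5% or more in saline.

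NP levels were below saline levels in every range. The log2 difference of the sum was -1.05 at 5% or more, -0.67 at 1 to 5%, -0.86 at 0.1 to 1%, -0.80 up to 0.1% and -0.59 at 0. All 5 genes were below 0 in all 5 ranges, from -0.40 (Cstdc4 at a share of 0) to -1.40 (Cstdc4 at 5% or more). The share of all genes below 0 was not counted by range. At a share of 0 the reference genes Mmp8 (-0.50), Retnlg (-0.48) and Lcn2 (-0.31) were also lower in NP. Il1b (0.30), Cxcr2 (0.15), S100a8 (0.09), Csf3r (0.03) and S100a9 (0.02) were higher there. Weighting the NP ranges as in saline gave -0.75 for the sum and moved Stfa2 to -0.995 and Stfa3 to -0.94. None of the 5 was then at least 2-fold lower, and the differing mix of ranges alone amounted to -0.13. Weighting 5 equal groups of cells by the same share gave -0.88 for the sum, -1.15 for Stfa2 and -1.12 for Stfa3. The mix of these groups alone amounted to -0.006. Each group held 18.4% to 21.4% of the neutrophils of either library, so this weighting could move little. Within the group with the most granule transcripts, the median share was still 0.511% in saline and 1.44% in NP. The weighted values thus depend on the cuts.

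Interferon-induced genes were much higher in NP neutrophils (Isg15 at 124 and 506 CPM, Gbp2 at 39 and 213), so the stefins were also read by the share of UMIs from 8 such genes (Isg15, Ifit1, Ifit3, Rsad2, Gbp2, Igtp, Ifi47 and Irf1). In saline 73.2% of neutrophils had a share under 0.05%, 24.7% were at 0.05 to 0.25% and 2.14% (120 cells) were above. In NP these were 31.1%, 41.3% and 27.7% (858 cells). The score is continuous and the ranges are cuts through it.

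In saline the stefins were lower in cells with more interferon transcripts. Their sum was 25333 CPM under 0.05%, 16197 in the middle range and 8724 at 0.25% or more. In NP it was 13192, 13456 and 10247 CPM. The NP library was thus lower at the low end (log2 -0.94, -0.95 to -0.93), less so in the middle (-0.27, -0.28 to -0.26), and slightly higher at the high end (0.23, 0.19 to 0.28).

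The same order held gene by gene. At 0.25% or more Cstdc4 was at 1716 CPM in saline and 2331 in NP (log2 0.44, 0.34 to 0.54) and Stfa3 at 252 and 333 CPM (0.41, 0.15 to 0.67). Stfa2 was at 865 and 923 CPM there, with an interval that holds 0 (0.09, -0.05 to 0.24). Under 0.05%, the differences ran from -0.76 (Cstdc5) to -1.30 (Stfa2).

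Within the NP library Stfa2l1 was higher in each successive range. It was at 1104 CPM under 0.05%, 2069 in the middle range and 2390.2 at 0.25% or more. In saline it was at 2701, 2614 and 2114 CPM. Stfa3 in NP was at 883, 623 and 333 CPM, and Stfa2 and Cstdc4 in NP were highest in the middle range (1437 and 2900.3 CPM). Among NP cells with a granule share under 0.1%, Cstdc4 was instead at 2854, 2813 and 2329 CPM. There Stfa2l1 was at 1810, 2115 and 2406 CPM, Stfa2 at 1161, 1263 and 920, and Stfa3 at 519, 519 and 330.

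The granule share moved with these ranges. It was 1.26%, 0.0939% and 0.00587% of UMIs in saline and 3.27%, 0.231% and 0.032% in NP from the lowest to the highest interferon range, and median depth was 7027, 4753 and 3691.5 UMIs in saline and 9812, 5045 and 4176.5 in NP. Among cells with a granule share under 0.1%, the log2 differences of the sum were -0.80, -0.30 and 0.23. S100a8 and S100a9 together were higher in NP in every range over all neutrophils (0.29, 0.25 and 0.19). Among cells with a granule share under 0.1% they were higher too (0.19, 0.24 and 0.17). The saline cells of the highest range are few, and the difference between the ranges was not tested over samples.

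**Figure D4:**
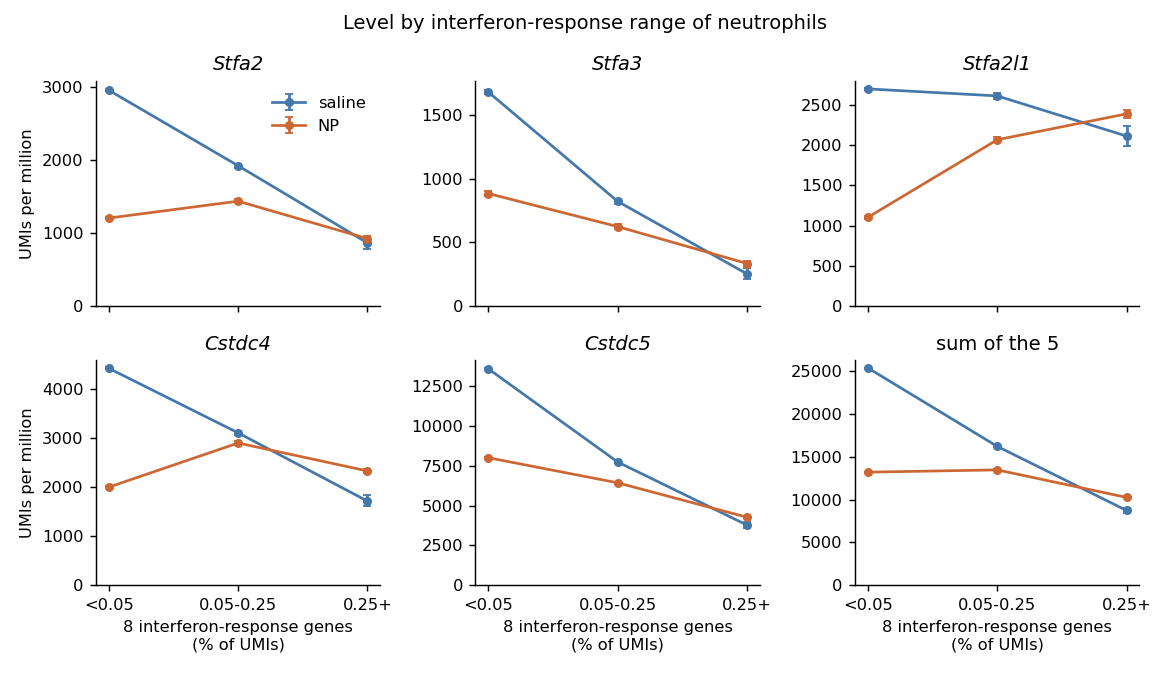
Level of each of the 5 stefin A genes and of their sum in neutrophils (CPM, linear axes from 0) by percent of UMIs from 8 interferon-induced genes, for saline and NP with 95% Poisson intervals. For the sum, saline is above NP under 0.05% (25333 and 13192 CPM) and below it at 0.25% or more (8724 and 10247 CPM).

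The neutrophil clusters differed in level. The cluster led by Cxcl10 and Rsad2, both interferon-induced, held 46 saline and 699 NP cells with 8958 and 10191 CPM of the 5 genes. A cluster led by Saa3 and Igfbp6, with 1144 saline and 99 NP cells, was at 20949 and 11804 CPM. The cluster led by Prok2 and Ggt1 (844 and 282 cells) had 33131 and 17335 CPM, and the cluster led by Ltf and Camp (402 and 285 cells) had 26947 and 13769. The largest cluster, led by Hist1h4i and Hist1h2bc (1751 and 500 cells), had the lowest level in both libraries, with 8658 and 5947 CPM, although its interferon share was 0.0512% and 0.115% of UMIs against 0.531% and 0.578% in the cluster led by Cxcl10. The part of the interferon share in the level of a cluster was not tested. The other 3 neutrophil clusters were between 10603 and 25006 CPM in saline, and the 2 of them with at least 20 NP cells were at 16121 and 11013 CPM.

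The genes whose pattern was most like each member were named by Pearson r of log2(CPM + 10) over the 15 neutrophil cluster and library pairs, among 11828 genes. The points share 2 libraries, so r is a description. Stfa3 and Cstdc5 were closest to each other (r 0.972), and Stfa2 to Stfa3 (0.932). Cstdc6 was near Cstdc5 (0.953) and Stfa3 (0.921). Cstdc4 was closest to Alox5ap (0.944), which encodes the activating protein of leukotriene synthesis, and then to Stfa2 (0.924). Stfa2l1 was closest to Orai1 (0.906), a calcium channel gene, with Wfdc18 (0.891) after it and no stefin among its 5 nearest genes. Over the 62 pairs of all clusters and libraries, its nearest genes were instead Cstdc4 (0.973), Stfa2 (0.960) and Cstdc5 (0.959). The neutrophil genes S100a9 (0.947) and Cxcr2 (0.942) came next, so r over all clusters is not particular to the stefins.

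Outside neutrophils the levels were lower and uneven. In saline the order of the sum was neutrophils at 23615 CPM, platelets at 16356, unnamed cells at 10259.9, basophils at 2727, B cells at 1867 and T cells at 1660.2. After these came endothelial cells at 779.9, plasmacytoid dendritic cells at 688, alveolar macrophages at 516, epithelial cells at 486, stromal cells at 435, NK cells at 421 and monocytes at 205. Endothelial and plasmacytoid dendritic cells, and each neighboring pair from alveolar macrophages to NK cells, had overlapping intervals. The platelet class is 19 cells led by hemoglobin and platelet genes. In it, the 16 cells with 1% or more of UMIs from S100a8 and S100a9 held 99.96% of the stefin UMIs. In NP, 11 of 17 platelet cells were of this kind and held 88.8%. Of the 475 basophil UMIs, 1 of 21 cells held 79.2%, and the level without it was 648 CPM. In saline B cells 46 of 521 cells, those with 1% or more of UMIs from S100a8 and S100a9, held 93.4% of the stefin UMIs, and in T cells 39 of 500 held 93.5%. Without such cells B cells were at 149 CPM, T cells at 127 and endothelial cells at 177, so the order of these classes rests on few cells.

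In NP every class was lower than in saline. Neutrophils were at 12789 CPM, platelets at 6532, unnamed cells at 2590.3, B cells at 463 and T cells at 448. Epithelial cells at 332, NK cells at 300.04, alveolar macrophages at 246, stromal cells at 243, endothelial cells at 135, basophils at 100.2, monocytes at 77.7 and plasmacytoid dendritic cells at 33.9 followed. Intervals overlapped between B and T cells, epithelial and NK cells, alveolar macrophages and stromal cells, endothelial cells and basophils, and basophils and monocytes.

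**Figure D5:**
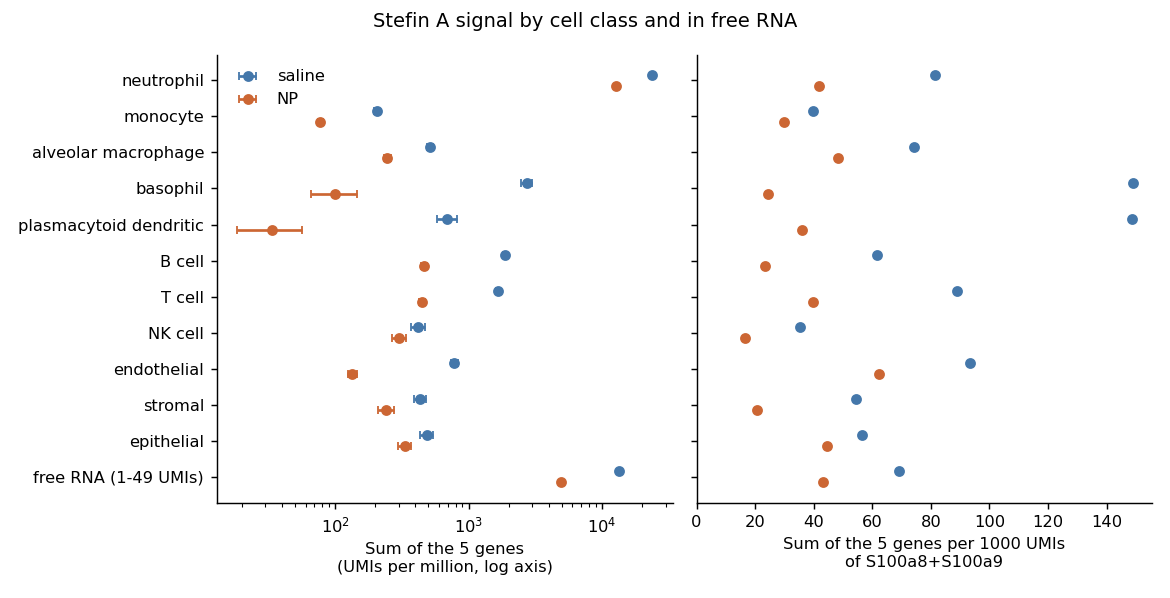
Summed level of the 5 stefin A genes in the named cell classes, without platelets, and in free RNA (barcodes of 1 to 49 UMIs), in CPM on a log axis with 95% Poisson intervals (left) and per 1000 UMIs of S100a8 and S100a9 (right), for saline and NP. Neutrophils are highest in CPM in both libraries (23615 and 12789), free RNA follows at 13508 and 4926, and every class is lower in NP.

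Barcodes with 1 to 49 UMIs, too few for a cell, were read as free RNA. There were 1734692 such barcodes in saline and 1719390 in NP, with 4350835 and 4421248 UMIs. The 5 genes made up 13508 CPM of these UMIs in saline and 4926 in NP (log2 -1.46, -1.48 to -1.43). Among single genes Stfa2 had the largest difference, from 1137 to 343 CPM (-1.73), and Cstdc5 the smallest, from 7887 to 2954 CPM (-1.42). Per UMI, free RNA thus held less stefin transcript than neutrophils and platelets and more than every other class in both libraries.

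All 5 genes were at least 2-fold lower in NP free RNA, where 0.681% of 4111 genes were at least 2-fold lower and 5.98% at least 2-fold higher. S100a8 and S100a9 together were also lower (195208 and 114526 CPM, log2 -0.77), beside neutrophil shares of 64.8% and 37.2% of kept cells, whose part in the difference was not tested. Of the 13 reference neutrophil genes, 12 were below 0 in free RNA, with a median of -0.68 against 0.24 over all genes. Retnlg, at -1.13, was at least 2-fold lower too. Cstb was at 181 and 176 CPM (-0.05). The makeup was close to that of neutrophils, with Cstdc5 at 58.4% and 60% and Cstdc4 at 17.4% in both.

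The 5 genes were also set against S100a8 and S100a9 in the other classes. They had 69.2 UMIs per 1000 of S100a8 and S100a9 in saline free RNA and 43 in NP, against 81.3 and 41.9 in neutrophils. In T cells the ratio was 88.9 and 39.7, in alveolar macrophages 74.2 and 48.4, in B cells 61.6 and 23.3 and in endothelial cells 93.4 and 62.2. Most stefin UMIs of the other named classes were in a few cells. Over these classes together, the 7.78% of saline and 3.59% of NP cells with 1% or more of UMIs from S100a8 and S100a9 held 88.8% and 82.8% of the stefin UMIs. The remaining 2431 saline and 4158 NP cells were at 103 and 34.9 CPM with ratios of 67.9 and 42.6. Whether these classes transcribe the genes themselves was not tested.

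Monocytes had the lowest level of any class in saline. Stfa2 was at 25.1 CPM in saline and 6.82 in NP (298 and 154 UMIs, log2 -1.88, -2.17 to -1.59). Stfa3 was at 11 and 3.77 CPM (131 and 85 UMIs, -1.55, -1.96 to -1.14). Both levels were under 1% of those in neutrophils.

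Cstdc5 was at 98.3 and 33.9 CPM in monocytes (log2 -1.53, -1.67 to -1.40), and Cstdc4 at 40 and 16.1 (-1.31, -1.51 to -1.11). Stfa2l1 was at 30.3 and 17.1 CPM, with the smallest difference as in neutrophils (-0.83, -1.04 to -0.62). The sum was at 205 and 77.7 CPM (-1.40, -1.49 to -1.31). It differed by -2.92 with clusters at resolution 0.5 and by -2.45 without called doublets, of which all but 1 were NP cells, so its size depends on which cells are taken. Of the 5 genes, 4 were at least 2-fold lower, where 0.379% of 8190 genes were at least 2-fold lower and 1.65% at least 2-fold higher.

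Neutrophil genes were lower in NP monocytes too. Of the 13 reference neutrophil genes, 11 had enough UMIs, and 10 of these were below 0. Their median was -0.46 against -0.03 over all genes, with S100a8 at -0.99, S100a9 at -0.97 and Lcn2 at -1.33. The 58 saline (7.31%) and 57 NP (3.74%) monocytes with 1% or more of UMIs from S100a8 and S100a9 held 65.6% and 66.6% of the stefin UMIs. Without them the sum was 77.2 and 27.2 CPM (log2 -1.51). Taken per UMI of S100a8 and S100a9, the sum differed by -0.42, no member by 2-fold, and Stfa2l1 by 0.15 in the other direction. In contrast, Cstb, which monocytes express, was at 272 and 301 CPM (0.14).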

How the data were processed

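Lungs of tumor-bearing mice were processed into single cell suspensions and run on the 10x Chromium platform, with 1 library per treatment. The authors mapped reads with Cell Ranger (version 6.0 in the submitters' processing notes, a version 4 header in the matrices) to mm10 and deposited raw UMI counts per gene and barcode for all barcodes, without filtering or normalization. The read length is not given in the sources used here.

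From these counts, cells were taken as barcodes of 500 to 5000 genes whose mitochondrial share of UMIs was under 7.5%, and were scaled to 10000, log transformed and clustered together (2000 variable genes with the stefin A family held out, 30 principal components, 20 neighbors, Leiden resolution 1). A cluster was named from marker lists when at least 3 markers were among its 50 leading genes and no second class led its top 10, and was otherwise left unnamed. Doublets were kept, because Scrublet marked 0.0115% of saline cells and so did not work there (3.68% of NP cells).

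Levels are UMIs per 1000000 UMIs of the pooled cells of a class, with exact Poisson, Clopper-Pearson or conditional binomial 95% intervals. Log2 ratios use a floor of 3 UMIs and genes with at least 200 UMIs. A called gene differs by at least 2-fold. With 1 library per group no p-value was computed. The genes named in the text are the 5 members, the other stefins and cystatins, cysteine cathepsins, neutrophil reference and interferon genes, and the 5 nearest genes by correlation. The members and lists were chosen with earlier results of these data known. Positions are from GENCODE vM21 and start-site sequences from RefSeq (GRCm38.p6). Python 3.11.15, scanpy 1.11.5, leidenalg 0.10.2, numpy 2.4.6 and scipy 1.17.1 were used, and the ratio and interval code was checked on simulated counts. Alternatives covered the cell filters, doublets, resolution, cell naming, weighting, standardization to the saline mix of ranges, the free RNA limit and the thinning depth.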

Additional observations from a re-analysis of the deposited data

Results flagged for a closer look

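Cells of unnamed clusters, which no comparison of the cell classes interprets, held 10259.9 CPM of the 5 stefin A genes in saline and 2590.3 CPM in NP. Those clusters mix marker genes of several classes. The largest contributions included a cluster led by endothelial genes that also scored for neutrophils (98 saline and 139 NP cells, 14619.6 and 7541 CPM) and one led by monocyte genes (71 and 55 cells, 17335 and 3721 CPM).

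The log2 NP over saline difference of the sum in neutrophils was -0.94 where interferon-induced genes took under 0.05% of UMIs and 0.23 where they took 0.25% or more, so that it had opposite signs in these ranges. The saline cells of the upper range number 120 and come from 1 library, and the difference between the ranges was not tested.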

How the results depend on the processing

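No paired analysis was possible because each group is 1 library, and no replicate was left out for the same reason. Counting intervals do not cover variation between mice, pools or libraries. All 5 genes were below 0 in NP neutrophils under all 17 alternatives, and 4 to 5 were in NP monocytes under all 16. These alternatives reuse the same libraries and are not independent of each other. A value below 0 was also common over all genes. In neutrophils 71.7% of 7256 genes lay below Csf3r (log2 -0.001), and in monocytes the median was -0.03. Alternatives marked here as added were chosen after seeing the data.

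In neutrophils the log2 difference of the sum (-0.88) became -0.89 with a minimum of 800 genes, a mitochondrial limit of 5%, resolution 2 or doublets left out at 1 threshold (added). It became -0.96 when each cell was classed by its own markers and -0.74 with equal weight per cell. Relative to the median of all genes it was -0.75. It was -0.75 at the saline mix of maturation ranges and -0.84 at the saline mix of interferon ranges (added). With the interferon ranges crossed with only 2 granule groups, under 0.1% and from 0.1%, it was -0.87 (added). The count of members at least 2-fold lower (2) was 1 relative to the median and 0 at the saline maturation mix. At the saline interferon mix, Stfa2 (-1.15) and Stfa2l1 (-1.07) were at least 2-fold lower. Stfa3 was then at -0.87, and Cstdc5 had the smallest difference (-0.70). With the interferon ranges crossed with the 2 granule groups, Stfa2 (-1.18) and Stfa3 (-1.08) were at least 2-fold lower and Stfa2l1 was at -0.84. The finer mix of maturation ranges was not crossed with the interferon ranges. At the saline mix of equal groups by the granule share, Stfa2 was at -1.15 and Stfa3 at -1.12. These groups were of similar size in both libraries, and their mix alone amounted to -0.006 for the sum. That weighting could therefore move little and says little about the maturation mix.

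In monocytes the sum (-1.40) was -1.14 and -1.57 with minimums of 200 and 800 genes, -1.67 and -1.28 with mitochondrial limits of 5% and 10%, -2.45 without doublets (1 saline and 307 NP cells removed over all classes), -1.92 without doublets at 1 threshold (added), -2.92 and -1.50 at resolutions 0.5 and 2, -1.63 by each cell's own markers, -1.51 without cells of 1% or more S100a8 and S100a9 (added) and -0.42 per S100a8 and S100a9 UMI. Per such UMI, 0 members were at least 2-fold lower and Stfa2l1 reversed from -0.83 to 0.15. The monocyte value thus depends on which cells are taken as monocytes.

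In free RNA the sum (-1.46) was -1.29 in barcodes of 1 to 19 UMIs and -1.75 in those of 50 to 99. Over 5 equal groups of cells by the granule share the highest level was 1.92 (saline) and 1.48 (NP) times the lowest, and over 5 such groups by Retnlg, Mmp8 and Mmp9 3.43 times in NP.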
